A study of Rattus norvegicus with 10 samples.

Results

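The genes described here are the core circadian clock of the rat liver and its main output factor: Arntl (also called Bmal1), Clock and Npas2, Per1, Per2 and Per3, Nr1d1 and Nr1d2, Cry1, and Dbp. They were chosen by name, and every probe set that the array annotation pairs with exactly 1 of these genes was taken. All 10 genes were measured, by 17 of the 31042 probe sets tested, which stand for 10 of 14217 genes. Clock had 4 probe sets, Nr1d2 had 3, Per2 and Per3 had 2 each, and the other 6 genes had 1 each.

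The livers came from male Sprague-Dawley rats, 5 weeks old, on 1 Affymetrix Rat Genome array per rat. The 5 rats of the iron-deficient group ate a diet with about 3 ppm iron for 3 days, made by leaving ferric citrate out of the control diet. The 5 pair-fed controls received the control diet with 48 ppm iron, in amounts matched to the iron-deficient rats. For 4 days before the diets began, both groups were fed only between 9 and 17 h, under lights that were on from 8 to 20 h. By the methods of the study, these feeding hours were kept during the diets, up to 1 day before the rats were killed. All livers were taken 1.5 h after feeding on day 3. The clock hour at which each rat was killed is not given in the labels, so that each array shows 1 moment of a daily cycle. The comparison asks whether a short lack of dietary iron went with a different level of these transcripts.

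The circadian clock is a loop in which a pair of activators drives the genes of its own repressors. ARNTL pairs with CLOCK or NPAS2 at E-boxes and drives the Per and Cry genes, whose proteins then block the pair, and also Nr1d1, Nr1d2 and Dbp. NR1D1 and NR1D2 (REV-ERB alpha and beta) are heme-binding repressors that act at RORE elements, among them those of Arntl, and DBP is a D-box activator that carries the rhythm to liver enzymes. In liver, feeding time is a strong cue for this loop.

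Clock elements were sought as letter matches in promoter windows of the members. RefSeq windows of rat assembly GRCr8, from 250 bases before to 50 bases after the start of the gene, were given for 9 of the 10 genes as 11 windows, with none for Cry1. Both strands were searched for the E-box CACGTG, the E-prime box CACGTT, the D-box TTATGTAA or TTACGTAA, the cyclic AMP element TGACGTCA, and the RORE by its name. Of the 11 windows, 4 held at least 1 of these, and they follow 5′ to 3′ on the strand of the gene, with the elements in capitals.
Arntl, chr1:176766078-176766377, + strand, RORE: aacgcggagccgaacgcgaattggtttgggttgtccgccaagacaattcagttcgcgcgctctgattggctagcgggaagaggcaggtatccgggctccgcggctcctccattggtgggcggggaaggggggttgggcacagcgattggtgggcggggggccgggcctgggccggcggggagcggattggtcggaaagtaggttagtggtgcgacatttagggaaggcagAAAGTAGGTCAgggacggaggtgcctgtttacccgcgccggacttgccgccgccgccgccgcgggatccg
Per2, chr9:99496944-99497243, - strand, D-box and then E-prime box: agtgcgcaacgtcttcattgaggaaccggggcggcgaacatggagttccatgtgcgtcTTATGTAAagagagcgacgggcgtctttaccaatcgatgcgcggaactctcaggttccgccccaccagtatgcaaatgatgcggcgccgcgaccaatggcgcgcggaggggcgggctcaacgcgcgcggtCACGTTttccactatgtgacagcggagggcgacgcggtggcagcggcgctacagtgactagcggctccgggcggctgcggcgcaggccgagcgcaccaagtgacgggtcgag
Nr1d1, chr10:84231763-84232062, - strand, E-prime box read from the opposite strand: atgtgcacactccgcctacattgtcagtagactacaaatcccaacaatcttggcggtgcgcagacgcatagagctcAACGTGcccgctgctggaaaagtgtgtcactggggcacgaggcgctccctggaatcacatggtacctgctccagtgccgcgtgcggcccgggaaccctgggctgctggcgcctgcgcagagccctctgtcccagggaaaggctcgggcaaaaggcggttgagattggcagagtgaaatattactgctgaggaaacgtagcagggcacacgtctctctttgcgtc
Nr1d1, chr10:84229405-84229704, - strand, E-box: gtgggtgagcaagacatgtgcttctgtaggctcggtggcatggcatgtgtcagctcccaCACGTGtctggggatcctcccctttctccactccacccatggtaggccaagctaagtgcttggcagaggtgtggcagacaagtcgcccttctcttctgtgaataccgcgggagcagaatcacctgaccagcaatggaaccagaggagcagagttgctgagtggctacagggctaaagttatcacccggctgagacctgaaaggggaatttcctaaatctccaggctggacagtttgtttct
With the base before the start counted as -1, the RORE called in the Arntl window lies at -20 to -10. A near copy of its letters further upstream in the same window was not called. The D-box of Per2 lies at -192 to -185 and its E-prime box at -62 to -57. The E-prime box of the upstream Nr1d1 window lies at -174 to -169, and the E-box of the other Nr1d1 window at -191 to -186. Over 33469 windows of the same length, 6.42% held the E-box, 4.83% the E-prime box, 1.01% a D-box, 1.83% the cyclic AMP element and 0.356% the RORE. Among the 11 windows of the clock genes these were found in 1, 2, 1, 0 and 1, in the same order. These matches are letters in a window and were not tested as binding sites.

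None of the 17 clock probe sets passed the test between the diets. By rank products at a false discovery rate under 0.05, 0 of 17 were higher and 0 were lower in the iron-deficient rats, while 0.844% of all 31042 probe sets passed (0.283% higher and 0.561% lower). The lowest false discovery rate of a clock probe set was 0.652, for Arntl. In limma, 0 of 17 had an adjusted p under 0.05 (lowest 0.644), and 0% of all probe sets did. At an unadjusted p under 0.05 there was 1 of 17 clock probe sets (5.88%), against 6.98% of all probe sets. The differences in log2 signal, iron-deficient minus pair-fed, ran from -0.19 to 0.19, with 8 probe sets higher and 9 lower.

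All 17 confidence intervals (95%, limma) lay between -0.47 and 0.45 on the log2 scale, which is between 0.724-fold and 1.36-fold, and 16 of them included 0. The median difference of the clock probe sets was -0.0052, against 0.0036 over all probe sets, and the median size of the difference without its sign was 0.09 against 0.07. The narrowest interval, of the second brightest Nr1d2 probe set, ran from -0.04 to 0.23.

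**Figure D1:**
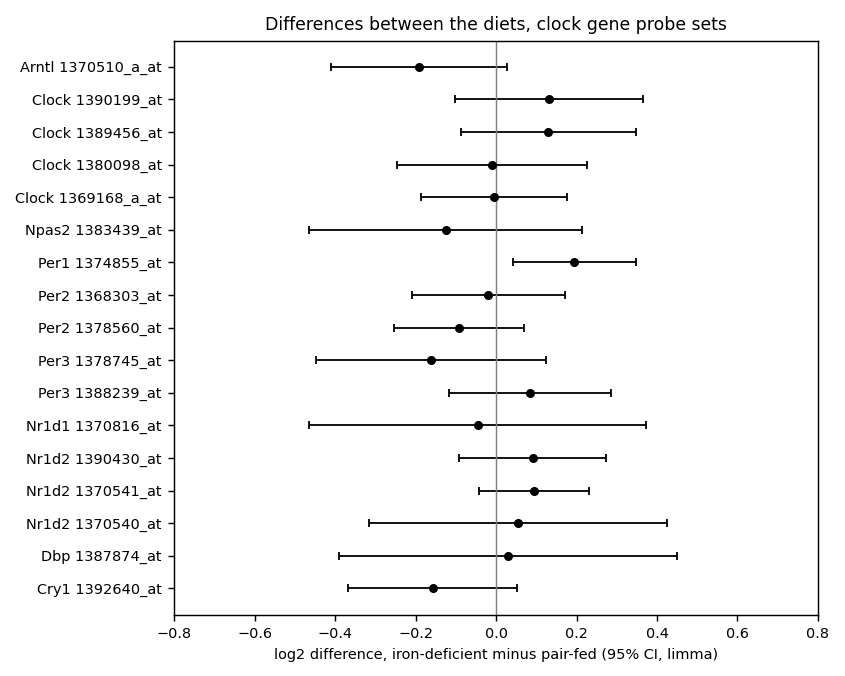
Difference in log2 RMA signal between the diets for each of the 17 clock probe sets (x axis, log2 units, iron-deficient minus pair-fed); points are means of 5 rats minus means of 5 rats and bars are 95% confidence intervals from limma. Only the interval of Per1, from 0.04 to 0.35, leaves out 0.

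Arntl, the activator that the loop cannot do without, had log2 signals of 5.70, 5.23, 5.12, 5.23 and 5.30 in iron-deficient replicates 1 to 5 and 5.58, 5.43, 5.58, 5.38 and 5.58 in pair-fed replicates 1 to 5. Its only probe set was dim, with a mean of 5.41 against a median of 6.21 over all probe sets. Iron-deficient replicate 1 was the highest of all rats, whereas the other 4 iron-deficient rats were below every pair-fed rat. The means were 5.32 ± 0.22 (SD, n = 5) and 5.51 ± 0.10 (SD, n = 5), so that the iron-deficient mean stood at -0.19 from the control (SE 0.10, limma adjusted p = 0.742). By the exact permutation test, 2-sided and unadjusted, p was 0.103. Without iron-deficient replicate 1, which also had the largest 3′ to 5′ difference of the beta-actin control probe sets (1.74, against 1.08 to 1.33 on the other arrays), the difference was -0.29 and the limma adjusted p was 0.530. The part of RNA quality in this value was not tested.

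Clock, the DNA-binding partner of ARNTL, gave 8.63, 8.08, 8.23, 8.48 and 8.09 in the iron-deficient rats and 8.16, 8.01, 8.20, 8.15 and 8.32 in the pair-fed rats at its brightest probe set. The groups overlapped, with iron-deficient replicates 1 and 4 above all pair-fed rats and the other 3 within their range, and the difference was 0.13 (SE 0.11), or 0.051 without iron-deficient replicate 1. The next brightest gave 0.13 (SE 0.10) as well, and the other 2 probe sets gave -0.010 and -0.0052. Npas2, which can replace CLOCK in the pair, had 1 dim probe set, with a mean of 4.75 against a median of 6.21 over all probe sets. Npas2 differed by -0.13 (SE 0.16) and ranged from 4.33 to 5.00 in the iron-deficient and from 4.50 to 5.22 in the pair-fed rats. With 1 rat left out its difference ranged from -0.21 without iron-deficient replicate 1 to -0.023 without pair-fed replicate 3.

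Per1 was the 1 clock probe set whose groups did not overlap. Per1, a repressor gene that also answers quickly to hormones and feeding, had log2 signals of 7.62, 7.68, 7.66, 7.63 and 7.87 in the iron-deficient rats and 7.52, 7.50, 7.34, 7.57 and 7.55 in the pair-fed rats. Every iron-deficient rat was above every pair-fed rat, but the gap between the groups was small, and the means of 7.69 ± 0.10 (SD, n = 5) and 7.50 ± 0.09 (SD, n = 5) differed by 0.19 (SE 0.07), or 1.14-fold. The exact permutation test gave p = 0.00794, 2-sided and unadjusted, which is the smallest p that 5 against 5 can give. Over all probe sets Per1 did not pass (limma adjusted p = 0.644, rank products false discovery rate 0.825). Of the clock probe sets 1 of 17 (5.88%) separated the diets in this way, against 1.29% of all probe sets. Leaving out 1 rat at a time gave differences of 0.15 to 0.21.

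Per2, a repressor gene with the E-prime box and the D-box shown above, had a mean that barely moved between the diets. At the brighter of its probe sets it gave 11.16, 10.66, 10.91, 10.79 and 10.72 in the iron-deficient rats and 10.84, 10.87, 10.83, 10.94 and 10.86 in the pair-fed rats. The pair-fed rats lay close together, whereas the iron-deficient rats lay on both sides of them, so that the SD was 0.20 against 0.05 (n = 5 each) at a difference in mean of -0.020 (SE 0.09). The second Per2 probe set differed by -0.09 (SE 0.07).

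Per3, the period gene of least importance for the loop itself, gave 7.91, 8.14, 8.28, 7.56 and 8.27 in the iron-deficient rats and 8.23, 8.32, 8.13, 8.32 and 7.96 in the pair-fed rats at its brightest probe set. Iron-deficient replicates 1 and 4 were below all pair-fed rats and the others within their range, with a difference of -0.16 (SE 0.13), or -0.044 without iron-deficient replicate 4. The dimmer Per3 probe set went the other way, with 0.08 (SE 0.09), and neither passed. Cry1, the partner of the PER proteins, gave 8.94, 8.91, 8.96, 8.58 and 8.63 in the iron-deficient rats and 8.88, 9.07, 8.76, 9.01 and 9.10 in the pair-fed rats. None of the 5 iron-deficient rats exceeded the pair-fed median, yet the groups overlapped, and the difference of -0.16 (SE 0.10) had an exact permutation p of 0.175. Without iron-deficient replicate 4 it was -0.10.

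Nr1d1 encodes the repressor whose ligand is heme, and its transcript was highly variable between rats. Its log2 signals were 7.47, 8.06, 7.82, 6.95 and 7.84 in the iron-deficient rats and 7.72, 7.78, 7.33, 8.08 and 7.48 in the pair-fed rats. The lowest and the second highest of the 10 values were both in the iron-deficient group, the values spanned 1.12 log2 units, and the diets differed by -0.046 (SE 0.19). Nr1d2, its close relative, gave 9.946, 10.235, 10.089, 9.758 and 10.083 in the iron-deficient rats and 9.987, 9.867, 9.858, 9.996 and 9.952 in the pair-fed rats at its brightest probe set. Of the iron-deficient rats 3 were above all pair-fed rats and 2 were not, and the difference was 0.09 (SE 0.08), with 0.037 without iron-deficient replicate 2 and 0.16 without replicate 4. At the next brightest, 5 of 5 iron-deficient rats were above the pair-fed median, with a difference of 0.09 (SE 0.06, exact permutation p = 0.0873), and the dimmest one gave 0.055 (SE 0.17).

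Dbp, the output factor, gave 9.85, 10.56, 10.53, 9.61 and 10.68 in the iron-deficient rats and 10.28, 10.21, 9.93, 10.48 and 10.20 in the pair-fed rats. The iron-deficient rats fell on both sides of the pair-fed ones, 3 above all of them and 2 below. The means were therefore close, 10.25 ± 0.48 (SD, n = 5) against 10.22 ± 0.20 (SD, n = 5), which left 0.029 between them (SE 0.19, exact permutation p = 0.897). The sign of the Dbp difference turned when 1 of 4 rats was left out, iron-deficient replicate 2, 3 or 5 or pair-fed replicate 3.

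**Figure D2:**
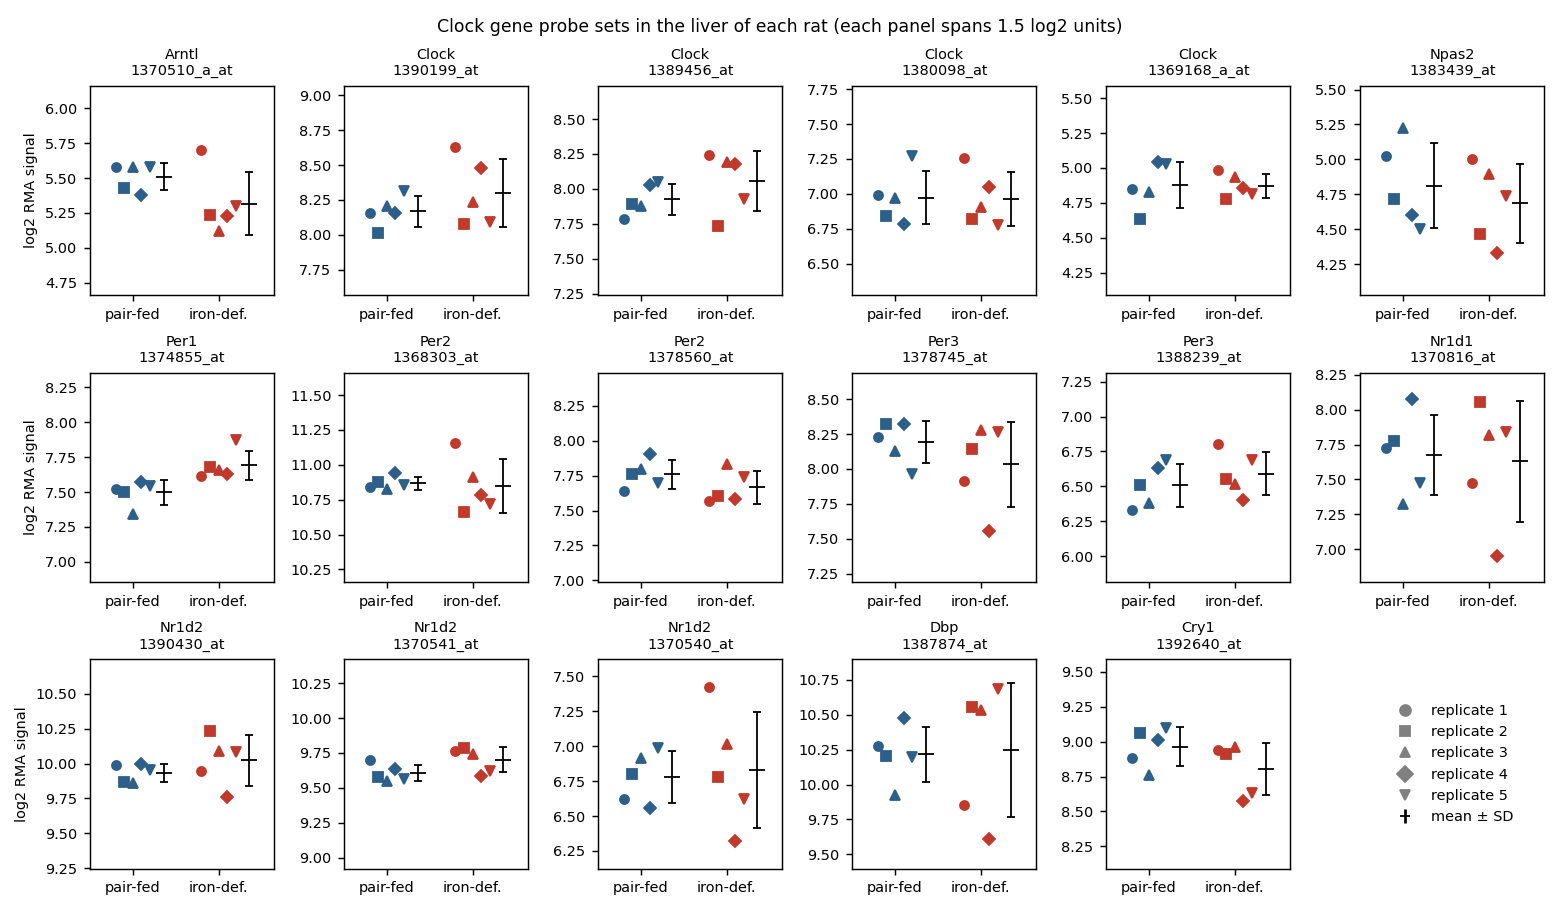
Log2 RMA signal (y axis) of each clock probe set in the 5 pair-fed (blue) and 5 iron-deficient (red) rats; symbols mark the replicate number, which does not pair rats, and bars are mean ± SD. Each panel has its own range of 1.5 log2 units, and Per1 is the panel in which the groups do not overlap.

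Most of the clock probe sets, but not all, differed more between rats of 1 diet than the median probe set did. The median SD within diets was 0.17 for the 17 clock probe sets and 0.14 over all probe sets, and 12 of 17 were above the latter. Per1 (0.10) and the second brightest Nr1d2 probe set (0.08) were among those below it. The comparison was not matched for signal level. Nr1d1 and Dbp had the largest, 0.37 each, followed by the dimmest Nr1d2 probe set with 0.32 and Npas2 with 0.29. For 15 of 17 clock probe sets the SD was larger in the iron-deficient group, as it was for 63.3% of all probe sets. The median ratio of the SDs, iron-deficient over pair-fed, was 1.50 for the clock probe sets and 1.22 over all. Without iron-deficient replicate 1 these were 12 of 17 and 54.8%, with ratios of 1.57 and 1.08, and without iron-deficient replicate 4 they were 13 of 17 and 60.6%, with ratios of 1.22 and 1.18.

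Rats that were low in Dbp tended to be low in Nr1d1, Nr1d2 and Per3 as well, although few of these relations passed the correction. To see this apart from the difference in diet means, each value was taken as its deviation from the mean of its own diet. The brightest probe set of each gene was used, and the deviations were correlated over the 10 rats for all 45 pairs of genes. At most of these probe sets, such as those of Dbp (SD 0.48 against 0.20) and Clock (0.24 against 0.11), the iron-deficient rats spread more. They therefore weigh more in r, and correlations within each diet alone were not computed. Dbp and Nr1d1 had r = 0.91 and rho = 0.89, with exact permutation p of 0.0011 and 0.0010 within diets, which adjusted over the 45 pairs were 0.05 and 0.0469. Without the rats farthest from the median in Nr1d1, iron-deficient replicate 4 and pair-fed replicate 3, r was 0.78. Across these pairs 0 had an adjusted p under 0.05 by Pearson and 1 by Spearman, while 8 had an unadjusted exact permutation p under 0.05 by Pearson, 6 of them positive and 2 negative.

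Nr1d1, Nr1d2, Dbp and Per3, all driven through E-boxes or D-boxes in the textbook loop, gave the strongest positive pairs. Nr1d1 with Nr1d2 had r = 0.88 and rho = 0.88 (exact permutation, adjusted p = 0.0531 and 0.0641). Nr1d2 with Dbp had r = 0.88 and rho = 0.92 (adjusted p = 0.0625 and 0.0992 from the same exact test). Per3 with Nr1d1 had r = 0.88 and rho = 0.79, and Per3 with Dbp had r = 0.87 and rho = 0.84 (exact permutation, adjusted p = 0.0625 and 0.0869 by Pearson, 0.105 for both by Spearman). Without the 2 rats farthest from the median of the first gene named, these 4 correlations were 0.71, 0.87, 0.72 and 0.91. Per3 with Nr1d2 was weaker, at r = 0.74 and rho = 0.75 (exact permutation, adjusted p = 0.280 and 0.235), and dropped to 0.33 without iron-deficient replicate 4. Per1 with Dbp had r = 0.70 and rho = 0.62 (exact permutation, adjusted p = 0.127 and 0.209), and r was 0.61 without the 2 rats farthest in Per1.

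**Figure D3:**
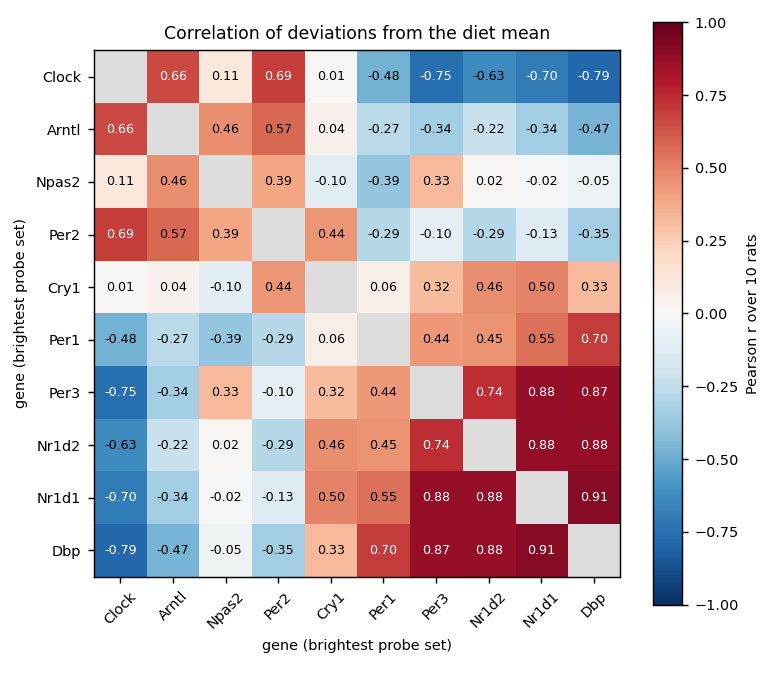
Pearson r of deviations from the diet mean over 10 rats for each pair of the 10 clock genes (both axes, brightest probe set of each gene; colour scale from -1 to 1). Dbp, Nr1d1, Nr1d2 and Per3 form a block of positive values, 0.74 to 0.91, and each is negative against Clock, -0.63 to -0.79.

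Clock ran opposite to this group. It had r = -0.79 and rho = -0.89 with Dbp, r = -0.75 and rho = -0.78 with Per3, and r = -0.70 and rho = -0.83 with Nr1d1, with exact permutation adjusted p of 0.280, 0.257 and 0.275 by Pearson and 0.105, 0.209 and 0.0992 by Spearman. None passed the correction. Without the 2 rats farthest in Clock, iron-deficient replicates 1 and 2, these were -0.74, -0.89 and -0.74. Among the pair-fed rats, replicate 5 was highest in Clock and replicate 2 lowest, at 0.15 and -0.16 from the diet mean. These rats ran opposite in Per3 (-0.23 and 0.13) and Nr1d1 (-0.20 and 0.10). In Dbp (-0.019 and -0.0096) and Nr1d2 (0.020 and -0.065) they did not. Arntl with Clock had r = 0.66 and rho = 0.47 (exact permutation, adjusted p = 0.302 and 0.524), and r was 0.18 without iron-deficient replicate 1, so that it rests on this rat. Per2 with Clock had r = 0.69 and rho = 0.41 (exact permutation, adjusted p = 0.403 and 0.623), and r was 0.084 without iron-deficient replicates 1 and 2. The 2 probe sets of Per2 had r = 0.018 with each other and those of Per3 had r = 0.13. The 4 Clock probe sets correlated with each other at 0.48 to 0.87 and the 3 of Nr1d2 at 0.14 to 0.66.

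**Figure D4:**
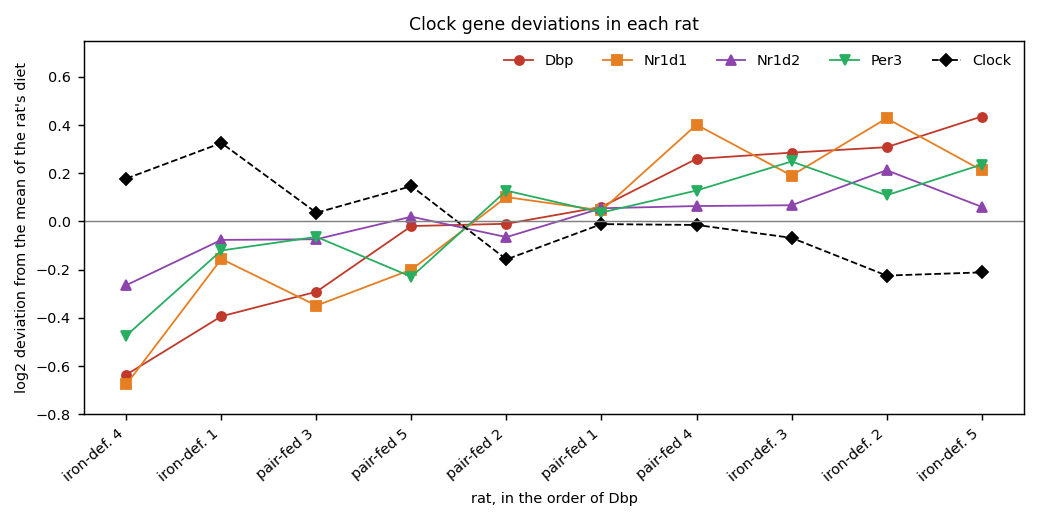
Deviation of 5 clock genes from the mean of the diet (y axis, log2 units) in each rat, with the rats placed in the order of Dbp (x axis); lines join the values of 1 gene and stand for no time course. Iron-deficient replicates 4 and 1 are lowest in Dbp, at -0.64 and -0.39, and highest in Clock, at 0.18 and 0.33, and the 3 other iron-deficient rats are highest in Dbp.

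Both values of a pair come from the same array. In the order of Dbp the pair-fed rats lie together in the middle. Below them are iron-deficient replicates 4 and 1, and above them replicates 3, 2 and 5. Iron-deficient replicate 4 was lowest in Dbp, Nr1d1, Nr1d2 and Per3, at -0.64, -0.68, -0.26 and -0.47 from the mean of its diet. Iron-deficient replicate 1 was highest in Clock, Arntl and Per2, at 0.33, 0.38 and 0.31, and second lowest in Dbp, and it is the array with the beta-actin value of 1.74. Leaving it out, the correlations with Clock were -0.75 for Dbp, -0.86 for Per3 and -0.81 for Nr1d1. The number of pairs with an adjusted p under 0.05 became 2 without iron-deficient replicate 2 or 5 or pair-fed replicate 2, and stayed 0 without any other rat.

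Genes outside the clock with the most similar pattern between rats were sought among 12263 probe sets of 1 gene and above-median signal, by Pearson r of deviations over the 10 rats. For Dbp these were Oat (0.97), a mitochondrial ornithine aminotransferase, Txnrd3 (0.96), a thioredoxin reductase, Ctsf (0.95), a lysosomal protease, Scp2 (0.95), a sterol carrier, and Nags (0.94), the enzyme that makes the activator of the urea cycle. Leaving out any 1 rat kept these at 0.91 or more. For Arntl they were Rock2 (0.97), a kinase of the cytoskeleton, Sf1 (0.97), a splicing factor, Copa (0.97), a vesicle coat subunit, Onecut2 (0.96), a liver transcription factor, and Pxdn (0.96), a peroxidase of the matrix. These dropped to between 0.81 and 0.91 without iron-deficient replicate 1. They are the highest of a long search and carry no test.

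The other genes of the loop were taken from lists of its activators, repressors and outputs. Among the other activators, repressors and D-box factors, only Bhlhe40 passed the rank products. Bhlhe40 (DEC1), an E-box repressor that dampens ARNTL and CLOCK, gave 10.32, 10.29, 10.27, 10.14 and 10.25 in the iron-deficient rats and 9.30, 10.16, 9.22, 9.76 and 9.83 in the pair-fed rats. The iron-deficient rats lay close together near the top, and 1 pair-fed rat, replicate 2, reached their range. Bhlhe40 rose from 9.65 ± 0.39 (SD, n = 5) to 10.26 ± 0.07 (SD, n = 5), by 0.60 (SE 0.15) with a false discovery rate of 0.0109. In limma the adjusted p was 0.601, and the exact permutation p was 0.0159. The call was kept in 9 of 10 fits with 1 rat left out and lost without pair-fed replicate 3, with a difference of 0.49, and by the rank sum.

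Of the listed genes, 6 of 7 activators, 9 of 10 repressors, 4 of 4 D-box factors, 14 of 17 kinases, ligases and partners and 20 of 23 clock-controlled transcripts had a probe set of their own. The clock genes described above are counted among these. Only 3 of the 6 activators, 3 of the 9 repressors and 3 of the 4 D-box factors were other genes. Counted at the brightest probe set of each gene, 0 of 6 activators rose and 0 fell, with a median difference of 0.016, and Bmal2, Rora and Rorb differed by 0.10, -0.037 and 0.070. Among 9 repressors, 1 rose and 0 fell (median 0.044), where Cry2 and Bhlhe41 gave 0.077 and 0.044. Of the 4 D-box factors, namely the activators Dbp, Tef and Hlf and the repressor Nfil3, 0 passed (median -0.040). Hlf differed by -0.21 (SE 0.08, limma adjusted p = 0.644) with an exact permutation p of 0.0317, and its other probe sets gave -0.13, 0.00 and -0.01. The probe sets of Tef did not go 1 way. The brightest gave 0.043 (SE 0.09), the next -0.27 (SE 0.08, limma adjusted p = 0.601), with 0 of 5 iron-deficient rats above the pair-fed median and an exact permutation p of 0.0238, and the dimmest 0.16 (SE 0.16). Nfil3 differed by -0.11 (SE 0.27).

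The enzymes and partners that set the speed of the loop did not pass either, with 0 of 14 rising or falling, 9 higher and 5 lower (median 0.019). Csnk1d, a casein kinase that marks PER proteins for breakdown, was 0.22 higher at its brightest probe set (SE 0.07, limma adjusted p = 0.601; exact permutation p = 0.0159), and its other probe sets gave 0.01, 0.06, 0.26 and 0.01. Csnk1e, its close relative, gave 0.12, Timeless -0.20, and Ppargc1a, a coactivator of the RORs, 0.31 (SE 0.14). The Ppargc1a value was 0.17 without iron-deficient replicate 3, and its other probe sets gave 0.38 and 0.017. The other probe sets of Csnk1e gave 0.11 and 0.27.

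Of 20 transcripts known to follow the clock in liver, 1 fell and 0 rose, with 5 higher and 15 lower (median -0.055, against 0.0036 over all probe sets). The one that fell was Cyp7a1, the rate-limiting enzyme of bile acid synthesis, which went from 10.24 ± 0.43 (SD, n = 5) to 9.30 ± 0.92 (SD, n = 5), or by -0.95 (SE 0.37). It passed in 10 of 10 fits with 1 rat left out, and the difference was -0.57 without iron-deficient replicate 1. By limma its adjusted p was 0.673. Wee1, a cell cycle kinase under E-box control, differed by -0.19 (SE 0.07), Tspan4 by -0.22 (SE 0.12; -0.12 without iron-deficient replicate 4) and Gys2, the liver glycogen synthase, by -0.32 (SE 0.14), and none of the 3 passed.

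Genes of the signals that reset liver clocks were read beside them. Of 13 glucocorticoid-induced genes 0 passed (8 higher, 5 lower, median 0.08), with Dusp1, Mt2A, Pck1 and Errfi1 at 0.33 (SE 0.25), -0.23 (SE 0.20), 0.39 (SE 0.25) and 0.29 (SE 0.17). Each of these rested in part on 1 rat: Dusp1 and Errfi1 were 0.17 and 0.13 without pair-fed replicate 1, Pck1 was 0.16 without pair-fed replicate 2, and Mt2A was -0.047 without iron-deficient replicate 5. Of 12 genes that respond to feeding and insulin, Igfbp1, an insulin-repressed binding protein, rose by 0.62 (SE 0.44), and Fgf21, a fasting hormone of the liver, fell by 0.37 on the log2 scale (SE 0.48). The Igfbp1 difference was 0.18 without iron-deficient replicate 3 and 0.97 without replicate 1, and its call was lost without replicate 2 or 3. That of Fgf21 was lost without iron-deficient replicate 1, 3 or 5 or pair-fed replicate 3, 4 or 5, and its difference ranged from -0.71 without pair-fed replicate 1 to -0.05 without pair-fed replicate 3. Cpt1a, the gate of fatty acid oxidation, differed by -0.35 (SE 0.12). All 8 heat shock genes measured had lower means, from -0.45 to -0.0033 (median -0.15, against 0.0036 over all probe sets). Among them 1 passed, where 0.561% of all probe sets were called lower. It was Hspb1, a small heat shock protein, with -0.45 (SE 0.16). Its call was lost without iron-deficient replicate 2, 3 or 5 or pair-fed replicate 2, 4 or 5. Hspa1a, Dnajb1 and Dnaja1 gave -0.19, -0.19 and -0.16.

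The tissue label was checked against markers. Of the hepatocyte markers, 7 of 7 measured were in the top percent of all probe sets, with a mean log2 signal of 14.57 to 14.63 in the iron-deficient and 14.56 to 14.61 in the pair-fed rats. Of 6 markers of red cell precursors 5 fell (Alas2, Hbb, Hba-a3, Hemgn and Ahsp), and their mean was 7.93 to 8.69 against 8.33 to 9.43. Of 6 stellate cell markers 1 rose, Lum, with means of 6.98 to 7.67 against 6.82 to 7.06, and 0 passed among 6 macrophage, 5 endothelial, 6 lymphocyte and 3 bile duct markers. The part of these cells in the clock values was not tested, and in whole liver fewer cells of a type and less RNA per cell cannot be told apart. The median of each array was 6.19 to 6.22.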

How the data were processed

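Hepatic RNA of 10 rats was measured on 1 array each. The deposited log2 values are robust multiarray average (RMA) signals computed by the authors; RMA brings the arrays to 1 distribution, which hides a shift common to all transcripts. Of the columns 0 were left out. Controls were grouped by title and treatment, although their source label names the other diet. Labels and methods differ on when feed was removed.

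After removal of 57 control probe sets, 31042 were tested; the annotation pairs 20826 with 1 gene, 436 with several and 9780 with none. Rank products (25 array pairs, 100 permutations within arrays, false discovery rate under 0.05) were the main test, in Python 3.11.15 with numpy 2.4.6. limma 3.58.1 (R 4.3.3), on the whole table with diet as the term, gave differences, SEs, intervals and Benjamini-Hochberg adjusted p. Exact permutation tests were 2-sided, with 14400 orders for correlations. Scripts were tested on simulated data. The number of arrays limits the precision.

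The genes and lists were chosen with earlier results of these data known. The text names, from each list, genes past the rank products and the 4 with the largest difference, and the 5 genes most like Arntl and Dbp. Alternatives were the test, the rank sum, a filter on dim probe sets, scaling, the replicate number as a block, each rat left out, no diet means removed, and the mean over probe sets of a gene; the SDs without iron-deficient replicates 1 and 4 were added after seeing the data.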

Additional observations from a re-analysis of the deposited data

Results flagged for a closer look

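Among the named genes, 3 of 90 groups of 5 rats held 1 value set apart from the other 4 by more than Dixon's 95% critical value allows, and chance alone gives about 1 in 20. They were Per1 in iron-deficient replicate 5 (7.87), Bmal2 in iron-deficient replicate 5 (5.97) and Dnaja1 in iron-deficient replicate 1 (12.8). Without iron-deficient replicate 5 the Per1 difference was 0.15, and the 4 other iron-deficient rats, at 7.62 to 7.68, were still above every pair-fed rat.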

How the results depend on the processing

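No clock probe set passed under any alternative run: limma, the rank sum, dim probe sets left out, a common median, the replicate block, or any 1 rat left out. The run with dim probe sets left out held only 14 of the 17 clock probe sets. Arntl, Npas2 and the dimmest of Clock were left out there and could not pass. The count of all probe sets that were higher was 4 by the rank sum, 53 with dim probe sets left out, 0 by limma and 47 to 101 with 1 rat left out, and that of lower ones was 32, 110, 0 and 90 to 189. By limma 2168 probe sets had an unadjusted p under 0.05. Same-numbered arrays did not deviate together (correlations of -0.04 to 0.09, with 1 of 5 iron-deficient arrays nearest to its own number), and with the replicate number as a block the rank products called 74 higher and 153 lower, 0 of them clock probe sets. Among the 45 pairs, 0 to 2 had an adjusted p under 0.05 with 1 rat left out. Leaving out 1 rat turned the sign of differences that had not passed: the range was -0.083 to 0.065 for the third Clock probe set by signal, -0.065 to 0.036 for the dimmest of Clock, -0.097 to 0.026 for the brighter of Per2, -0.15 to 0.12 for Nr1d1, -0.093 to 0.18 for the dimmest of Nr1d2, -0.079 to 0.19 for Dbp, -0.13 to 0.067 for Rora, -0.049 to 0.11 for Bhlhe41, -0.012 to 0.095 for Tef, -0.29 to 0.052 for Nfil3, and -0.44 to 0.053 for Hspa1a. Signs of the other 11 clock probe sets held in every fit. The cause was not tested in any of these. Igfbp1, Fgf21 and Hspb1 lost their calls with the replicate block, and Fgf21 also with dim probe sets left out. Hspb1, with group means of 5.72 and 6.17 against a median of 6.21 over all probe sets, was itself left out there and could not pass. The calls of Bhlhe40, Cyp7a1, Igfbp1, Fgf21 and Hspb1 were lost by the rank sum and by limma. Precision differed between the clock probe sets, with SEs of 0.06 to 0.19.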
